A study of Mus musculus with 2 samples.

Results

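The azurophil (primary) granule transcripts Mpo, Elane, Prtn3, Ctsg, Prss57 and Ms4a3 were examined across the myeloid stages of mouse bone marrow. The 6 genes were taken by symbol from the 32285 genes of the count tables, and all 6 were found. Elane (neutrophil elastase), Prtn3 (proteinase 3), Ctsg (cathepsin G) and Prss57 are serine proteases, whereas Mpo is a peroxidase and Ms4a3 is a membrane protein, so that the term protease holds for 4 of the 6. Femoral marrow was taken at 2 months of age and profiled with Chromium 3' v3, with 1 library for each of the 2 genotypes. The control was a Ddx41 fl/fl littermate that lacked VavCre and carried wild-type cGas, and it is labelled WT. The DKO mouse was VavCre:Ddx41 fl/fl and cGAS-/-, so both mice carried the floxed Ddx41 alleles. VavCre deletes in blood cells and is also active in oocytes and endothelial cells, and the germline cGas deletion reaches every cell. Since no genotype had a replicate, no test was made between them, and each difference describes these 2 libraries and not the genotypes. Where 2 values stand together below, the control comes first and the DKO library second.

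Azurophil granules are the first granules that neutrophils build, at the promyelocyte stage. Their proteins are made in a short window, packed on the proteoglycan serglycin and kept until the mature cell kills microbes, and their genes are switched off as the myelocyte turns to specific granule proteins such as lactoferrin and cathelicidin. Mpo forms hypochlorous acid, Elane, Prtn3 and Ctsg cut microbial and matrix proteins, and Elane is the gene most often mutated in severe congenital neutropenia. Monocyte precursors also use part of this set.

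In GRCm38 coordinates, 3 of the 6 genes lie on chromosome 10 within 106.742 kb, namely Prss57 (chr10:79781474-79790961, minus strand), Prtn3 (chr10:79874476-79883174, plus strand) and Elane (chr10:79886247-79888215, plus strand). Prtn3 and Elane are 3.073 kb apart. Mpo lies at chr11:87793581-87804413 (plus strand), Ctsg at chr14:56099881-56102574 (minus strand) and Ms4a3 at chr19:11629496-11640851 (minus strand). RefSeq promoter entries (build GRCm38.p6) were found for 5 of the 6 genes, all but Prss57. The 250 bases upstream of each RefSeq start were cut where a GENCODE exon of the gene began, which left 47 bases for Mpo, 185 for Elane, 197 for Prtn3 and 250 each for Ctsg and Ms4a3. The Prtn3 window (chr10:79879417-79879613) lies inside the gene span given above, downstream of the first GENCODE start. GAGGAA, the core bound by the myeloid factor PU.1, was found on the gene's own strand in 4 of the 5 windows (the search covered both strands), and it is shown in capitals with up to 12 bases on each side because it recurred in most members; it was picked for printing after the matches were seen.
Mpo (chr11:87793548-87793577, plus strand): tgtggagagagaGAGGAAgttgcctttgtc
Elane (chr10:79886215-79886244, plus strand): tcgtgtcccaggGAGGAAgtagggctgtgg
Prtn3 (chr10:79879560-79879589, plus strand): ccaaactggaagGAGGAAgtgggacccaca
Ctsg (chr14:56102773-56102802, minus strand): ctcccagaaggaGAGGAAgaaaaggaagta
Mpo held another copy of it, 247 to 242 bases upstream. The printed matches run from 224 to 219 upstream of the RefSeq start in Mpo, from 85 to 80 in Elane, from 95 to 90 in Prtn3 and from 216 to 211 in Ctsg. Among 32851 promoter windows cut to the same lengths, GAGGAA or its reverse was present in 4.51% at 47 bases, 17.6% at 185 bases, 18.6% at 197 bases and 23.3% at 250 bases. The C/EBP motif TTGCNNAA was in none of the 5 windows. It was in 9.56% of all windows of 250 bases, and in 1.86%, 7.62% and 8.01% at 47, 185 and 197 bases. TGNGGT (RUNX), which is in 40.1% of all windows of 250 bases, occurred in Ctsg only, with 2 copies, and AACNG (MYB), whose letters fit 74.2% of all windows of 250 bases, occurred in Prtn3 and Ctsg. At 47, 185 and 197 bases the shares were 8.82%, 32.1% and 33.8% for RUNX and 22.7%, 63.9% and 66.2% for MYB. TATAAA was in 12.4% of all windows of 250 bases, and in 2.41%, 8.55% and 9.05% at 47, 185 and 197 bases. Among the 5 windows it occurred in Ctsg alone, on the opposite strand, 237 to 232 bases upstream. These are matches of letters and not sites of binding.

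Empty droplets, doublets and cells with over 20% mitochondrial UMIs (unique molecular identifiers, 1 per captured transcript) were left out, which kept 18726 and 13719 cells with medians of 4873 and 6900 UMIs. Cell calling was done here for the control table, which listed every barcode, whereas the DKO table came with cells already called. The libraries shared 75 cell barcodes. Of the targeted genes, Ddx41 had 20.3 and 7.99 CPM (UMIs of a gene scaled to the total of the cells concerned) over all cells, and its log2 ratio of DKO over control was -1.34 (95% interval -1.45 to -1.23). In the granulocyte progenitor-like cells described next, its log2 ratio was -1.36 (95% interval -1.95 to -0.86), and that of Cgas was 0.13 with an interval from -0.34 to 0.57. Cgas had 13.5 and 7.24 CPM over all cells, so its transcript was still counted in the DKO library, and 3' counts do not show whether it is intact. Intervals here are exact 95% intervals (Poisson for levels, Clopper-Pearson for shares, conditional binomial for ratios), except where a normal approximation is named. All of them cover counting error only.

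Cells were grouped into clusters without use of the 6 genes, and none of the 6 was a marker for naming. Members could still take places among the 10 leading genes that helped decide whether a cluster kept its name. The second clustering, which gave the main class, was added after leading genes, members included, had been seen. The grouping was thus not wholly independent of the members. Cluster 34 was named granulocyte progenitor-like from 10 raised markers, of which Nkg7 and Cst7 were among its leading genes, and its 6 first genes were the 6 members. Camp, a specific granule gene of myelocytes, was already at 18288 and 19836 CPM in it, so the class is not made of promyelocytes alone. Cluster 27, led by Mpo, Gria3, Ctsg and Cd34, met no name, and it is called unnamed 27. Its markers were closest to the monocyte-like class, and Irf8, a factor of monocyte precursors, was at 537 and 511 CPM in it, against 3.73 and 1.58 CPM in granulocyte progenitor-like cells (Irf8 is named after its values were seen), so it is not taken as a neutrophil stage here. Cluster 34 held 233 and 96 cells, and unnamed 27 held 313 and 164 cells. The later neutrophil classes were early neutrophil-like cells (546 and 400 cells), immature neutrophil-like cells (648 and 566) and mature neutrophil-like cells (1295 and 1617). The mature cells of the 2 libraries sat mostly in different clusters, with 949 of the control cells in cluster 23 and 1098 of the DKO cells in cluster 25.

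The 6 transcripts were concentrated in these 2 clusters. Granulocyte progenitor-like cells were 1.24% and 0.700% of the cells but held 49.4% (interval 49.2% to 49.5%) and 46.2% (interval 45.9% to 46.4%) of all UMIs of the 6 genes. Unnamed 27 held a further 27.02% and 34.3%. Monocyte-like cells held 6.10% and 4.36%, unnamed 31 held 5.35% and 2.72%, early neutrophil-like cells 3.07% and 3.55% and unnamed 26 2.23% and 2.95%. The order of the 2 libraries in the share of granulocyte progenitor-like cells turned under other settings. It was 52.9% against 57.0% with a mitochondrial limit of 10%, and 49.6% against 57.2% at clustering resolution 2.0.

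Levels per class are given in CPM of the class total. Each UMI counts the 3' end of 1 transcript, so the levels of different genes were compared without a correction for length. In granulocyte progenitor-like cells the 6 genes summed to 45872 and 35489 CPM. Elane was the most abundant at 18012 and 14486 CPM, followed by Prtn3 at 13707 and 9245 CPM. Mpo had 5826 and 6271 CPM, and Ctsg had 5838 and 3635 CPM. The intervals of Mpo and Ctsg overlapped in the control cells (5756 to 5896 and 5768 to 5908 CPM), whereas those of the DKO cells did not. All other neighbours in this order had intervals that did not overlap. Ms4a3 followed at 2065 and 1527 CPM, and Prss57 was lowest at 425 and 325 CPM.

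**Figure D1:**
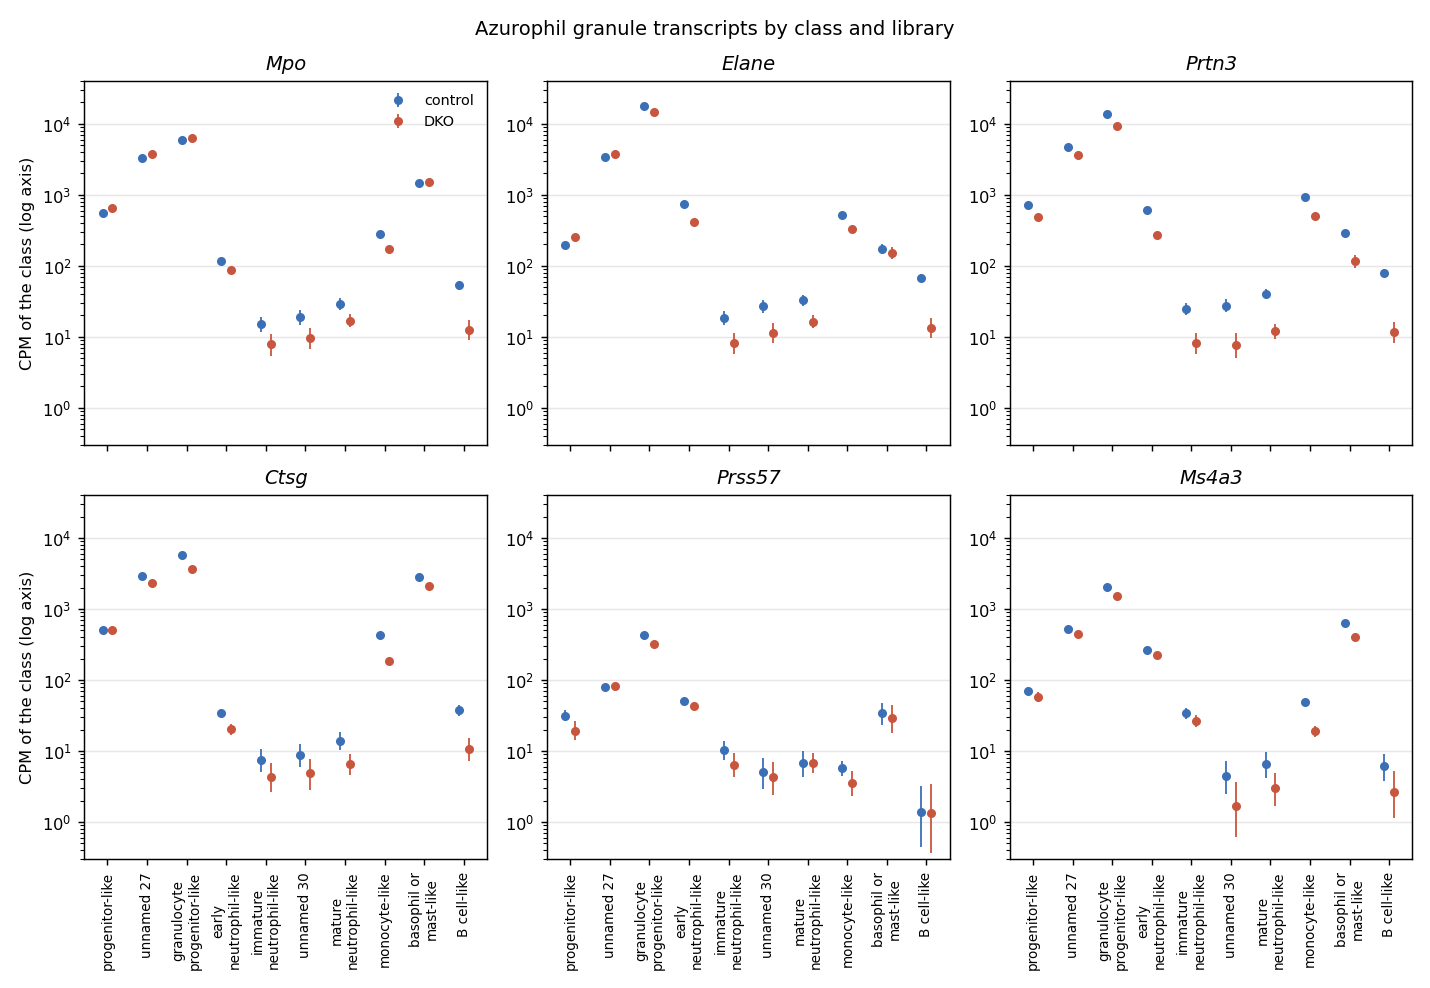
Level of each of the 6 transcripts (CPM of the class total, log axis) in 10 classes of cells for the control (blue) and DKO (red) library, with the exact 95% Poisson interval as bars; there is 1 library per genotype. All 6 peak in granulocyte progenitor-like cells, from 18012 CPM for Elane to 425 CPM for Prss57 in the control, and Ms4a3 and Prss57 stay above the B cell-like level in immature neutrophil-like cells.

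The makeup of the set differed among progenitor-like cells, unnamed 27 and granulocyte progenitor-like cells. In progenitor-like cells (297 and 107 cells, named from markers such as Cd34, Kit and Flt3), Prtn3 had 714 and 482 CPM, Mpo 563 and 657 CPM, Ctsg 513 and 509 CPM, and Elane 197 and 256 CPM. These levels rest on few cells, since the 5 highest cells held 39.3% and 66.2% of the class's UMIs of the 6 genes. Elane was thus 9.44% of the 6 transcripts in control progenitor-like cells, 22.6% in unnamed 27 and 39.3% in granulocyte progenitor-like cells. The same shares in the DKO library were 12.9%, 26.9% and 40.8%. Mpo went the other way, from 26.9% to 22.1% to 12.7% (control) and from 33.2% to 26.5% to 17.7% (DKO). Ctsg also took less of the set, from 24.6% to 19.7% to 12.7% (control) and from 25.7% to 16.4% to 10.2% (DKO). Both libraries therefore showed an Elane share that was larger, and Mpo and Ctsg shares that were smaller, in the cells with more granule transcripts.

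The members also differed in the later neutrophil classes. In early neutrophil-like cells Ctsg was at 34.7 and 20.4 CPM, against 37.4 and 10.7 CPM in B cell-like cells, which do not make these proteins and serve here as the background. In the control library 1 of 1260 B cell-like cells held 57.5% of that class's UMIs of the 6 genes. Without this cell, which was set aside after seeing the data, the control background was 13.7 CPM (interval 10.1 to 18.1) for Ctsg, below the 34.7 CPM (interval 30.5 to 39.3) of early neutrophil-like cells, so whether control Ctsg was above background rested on 1 cell. Ms4a3 was 264 and 222 CPM in early neutrophil-like cells, against 6.09 and 2.66 CPM in B cell-like cells. Early neutrophil-like cells held 9.74% and 16.2% of all Ms4a3 UMIs and 9.62% and 15.3% of all Prss57 UMIs, but 3.88% and 4.14% of Elane and 0.375% and 0.507% of Ctsg. In immature neutrophil-like cells Ms4a3 was the highest of the 6 in both libraries at 33.8 CPM (interval 28.5 to 39.8) and 26.4 CPM (interval 21.8 to 31.7). Prss57 was 10.3 and 6.43 CPM there, above its B cell-like level of 1.38 and 1.33 CPM. Mpo, Elane, Prtn3 and Ctsg were below their B cell-like levels in both libraries, with Elane at 18.5 and 8.26 CPM against 68.1 and 13.3 CPM. Without the 1 high cell the control background was 27.1 CPM for Elane, 34.9 for Prtn3, 23.5 for Mpo and 13.7 for Ctsg, against 18.5, 24.9, 15.02 and 7.51 CPM in control immature neutrophil-like cells. In mature neutrophil-like cells the 6 together had 129 and 61.7 CPM, against 246 and 52.3 CPM in B cell-like cells, where the control value was 105 CPM without the 1 high cell and so turned the order. Prss57, at 6.77 and 6.88 CPM, had intervals above those of B cell-like cells in both libraries. Ms4a3, at 6.49 and 2.97 CPM, was within the B cell-like intervals.

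**Figure D2:**
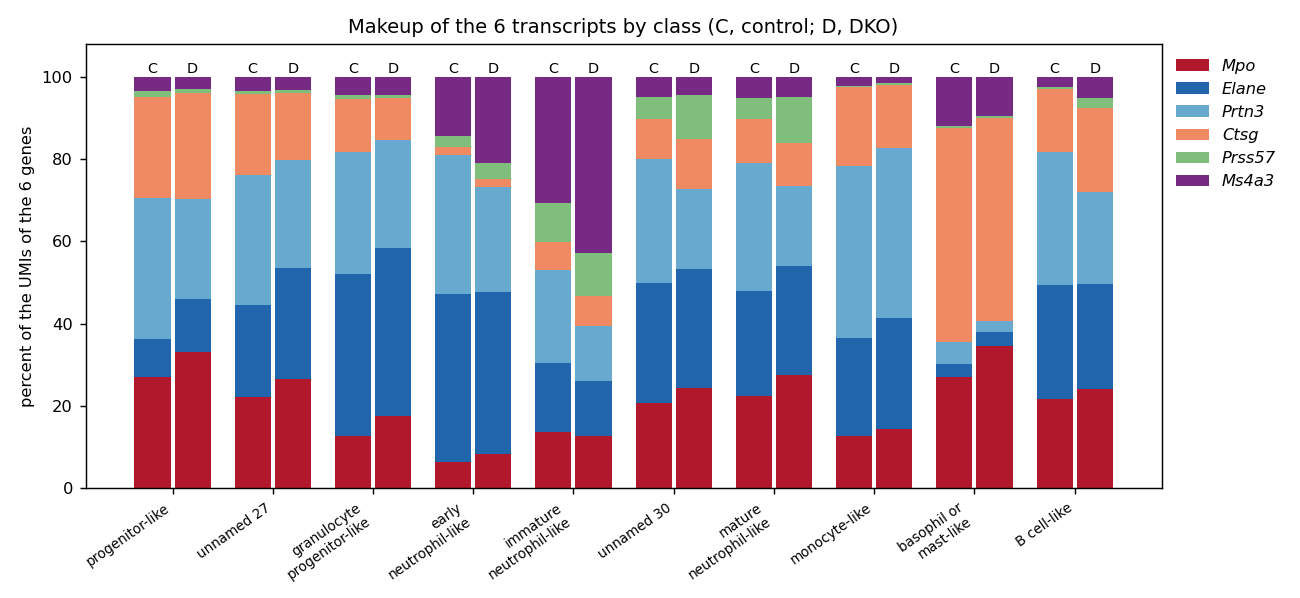
Share of each gene (color) in the UMIs of the 6 genes, in percent, for 10 classes of cells, with the control library (C) beside the DKO library (D). Elane widens from progenitor-like to granulocyte progenitor-like cells (9.44% to 39.3% in the control), Ms4a3 is widest in immature neutrophil-like cells (30.7% and 42.9%), and Ctsg is the widest band in basophil or mast-like cells (51.99% and 49.2%).

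Single cells showed the same concentration. In granulocyte progenitor-like cells the median cell drew 4.48% and 3.81% of its UMIs from the 6 genes, and the highest cells reached 12.8% and 9.08%. In unnamed 27 the medians were 1.08% and 0.881%, in early neutrophil-like cells 0.0374% and 0.0241%, and in B cell-like cells 0%. Over the whole marrow, 516 control cells (2.76%, interval 2.5% to 3.0%) and 197 DKO cells (1.44%, interval 1.24% to 1.65%) drew at least 1% of their UMIs from the 6 genes, and these cells held 86.9% and 84.3% of the libraries' member UMIs. At a limit of 5% there were 109 control cells (0.582%) and 26 DKO cells (0.190%), and at 10% there were 5 and 0, which allows a share of up to 0.0269% in the DKO library. These limits, chosen after the values were seen, divide a continuous range: 117 and 38 cells lay within 20% of the 1% limit, and 92 and 40 within 20% of the 5% limit. The doublet filter had removed 1 of 517 and 0 of 197 cells at or above 1%.

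**Figure D3:**
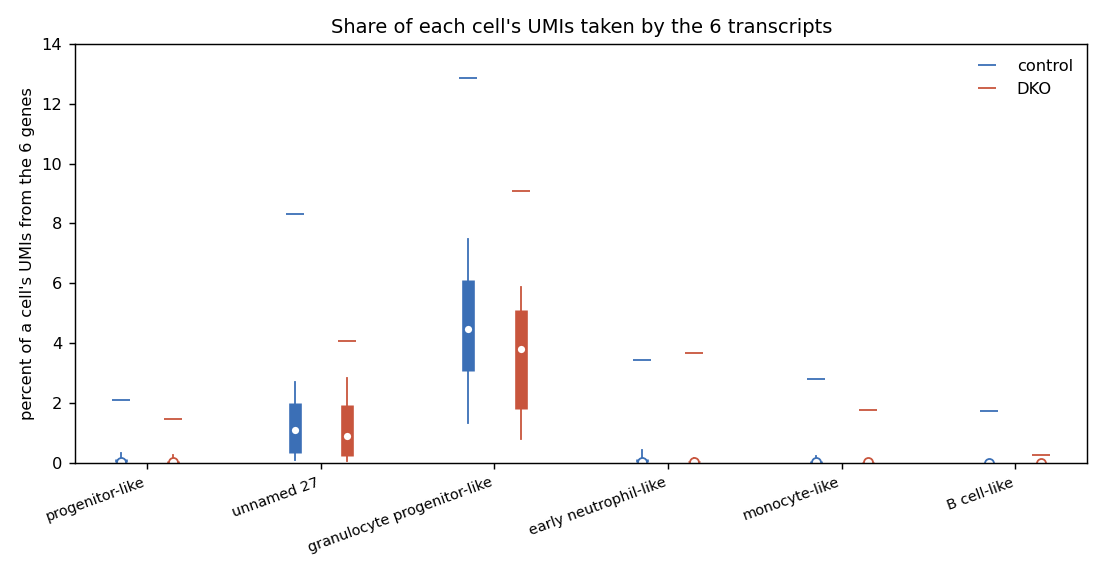
Percent of each cell's UMIs that came from the 6 genes, by class, for the control (blue) and DKO (red) library; thick bars span the 25th to 75th percentile, thin lines the 10th to 90th percentile, open points the median and dashes the highest cell. Granulocyte progenitor-like cells stand apart with medians of 4.48% and 3.81%.

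With each cell thinned to 1000 UMIs, since DKO cells were deeper, Elane was detected in 98.7% of 228 control and 97.9% of 95 DKO granulocyte progenitor-like cells, against 2.89% and 1.48% of B cell-like cells. Before thinning these shares were 100% in both libraries for granulocyte progenitor-like cells (median 21255 and 27106.5 UMIs) and 6.98% and 4.24% for B cell-like cells (median 2561.5 and 3608.5 UMIs). Prtn3 was detected in 96.9% and 95.8%, Mpo in 92.5% and 87.4%, and Prss57 in 33.8% and 33.7% of the thinned granulocyte progenitor-like cells. Ctsg was detected in 83.8% (interval 78.3% to 88.3%) and 72.6% (interval 62.5% to 81.3%), and Ms4a3 in 84.2% (interval 78.8% to 88.7%) and 70.5% (interval 60.3% to 79.4%). All 6 were found together in 27.6% (interval 21.9% to 33.9%) of control and 25.3% (interval 16.9% to 35.2%) of DKO cells, and the intervals overlap. In unnamed 27 this share was 2.88% and 0.613%, and in early neutrophil-like cells 0 of 512 control and 0 of 376 DKO cells held all 6.

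The comparison of DKO with control was first made over all kept cells. The 6 genes summed to 3551 and 1693 CPM, and the log2 ratio was -1.07 (interval -1.08 to -1.06). Each of the 6 was lower in the DKO library by more than 1.5-fold, from -0.65 for Mpo to -1.31 for Prtn3 on the log2 scale. Over the 5610 other genes with at least 20 CPM, 9.47% were lower by 1.5-fold or more and the median log2 ratio was -0.07. The level over all cells joins the share of cells of a class with the level within it, and the share of granulocyte progenitor-like cells also differed, as given above.

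Within granulocyte progenitor-like cells the difference was smaller. The log2 ratio of the 6 together was -0.37 (interval -0.38 to -0.36). The ratio was -0.22 with doublets kept, in 405 and 167 cells, and -0.77 in the first clustering alone, where these cells shared a cluster with myelocyte-stage cells. Ctsg had the lowest ratio of the 6 (-0.68, interval -0.72 to -0.65), Prtn3 was at -0.57, Ms4a3 at -0.43, Prss57 at -0.38 and Elane at -0.31. Mpo was higher at 0.11 (interval 0.08 to 0.13), though it stayed above 0 in only 9 of 11 alternatives, with a range from -0.24 to 0.30. Only Ctsg passed 1.5-fold (0.58 on the log2 scale), with Prtn3 just short of it, where 27.3% of 5995 other genes passed in either direction, 4.7% lower and 22.6% higher. Ctsg missed 1.5-fold with doublets kept (-0.46) and above the order-of-magnitude threshold of cell calling (-0.53), and Prtn3 passed it with a mitochondrial limit of 10% (-0.64), at resolution 2.0 (-0.68) and with the members among the clustering genes (-0.59). The median log2 ratio of these genes was 0.18.

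Unnamed 27 gave a different order. Mpo was at 3292 and 3711 CPM (0.17, interval 0.14 to 0.20), and Elane was 3361 and 3767 CPM (0.16, interval 0.14 to 0.19). Prtn3 was 4704 and 3676 CPM (-0.36, interval -0.38 to -0.33) and Ctsg was 2935 and 2301 CPM (-0.35, interval -0.38 to -0.32). Ms4a3 had a log2 ratio of -0.23, and the interval of Prss57 spanned 0. None of the 6 passed 1.5-fold, against 13.4% of 6750 other genes in either direction and 2.62% that were lower. In progenitor-like cells Elane (0.38) and Mpo (0.22) were again higher and Prtn3 (-0.56, 714 against 482 CPM) lower, and Prss57 alone was lower by 1.5-fold (-0.68, 31.5 against 19.4 CPM), against 3.46% of 7250 other genes. No alternative was run for unnamed 27 or progenitor-like cells alone, so whether these ratios hold under other settings was not tested.

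In early neutrophil-like cells all 6 ratios were below 0, and the intervals of 5 did not reach 0. Prtn3 was at 620 and 272 CPM (-1.19, interval -1.27 to -1.11), Elane was 749 and 420 CPM (-0.83, interval -0.90 to -0.77), and Ctsg had a ratio of -0.76. These 3 passed 1.5-fold, where 1.51% of 5432 other genes were lower by as much. In the control, Ctsg was below the 37.4 CPM of B cell-like cells, and above their 13.7 CPM without 1 high cell. No ratio of Ctsg could be taken with the 37.4 CPM subtracted. With doublets kept the ratio of Ctsg turned to 0.20, that of Mpo to 0.27 and that of Elane was -0.46, and with a mitochondrial limit of 10% that of Ctsg turned to 0.12 and that of Elane was -0.20. With the B cell-like level subtracted, the 1 high control cell included, Mpo turned to 0.24. Only Prtn3 stayed past 1.5-fold in all 10 alternatives. Ms4a3 (-0.25) and Prss57 (-0.20) differed least. The class joined cluster 29, with 2692 and 2010 CPM of the 6 genes (-0.42), and cluster 35, with 1183 and 628 CPM (-0.91). A few cells carried much of these sums, since 30 control and 14 DKO cells with at least 1% of their UMIs from the 6 genes held 43.9% and 41.7% of the class's member UMIs. Without them the level was 1082 and 640 CPM.

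**Figure D4:**
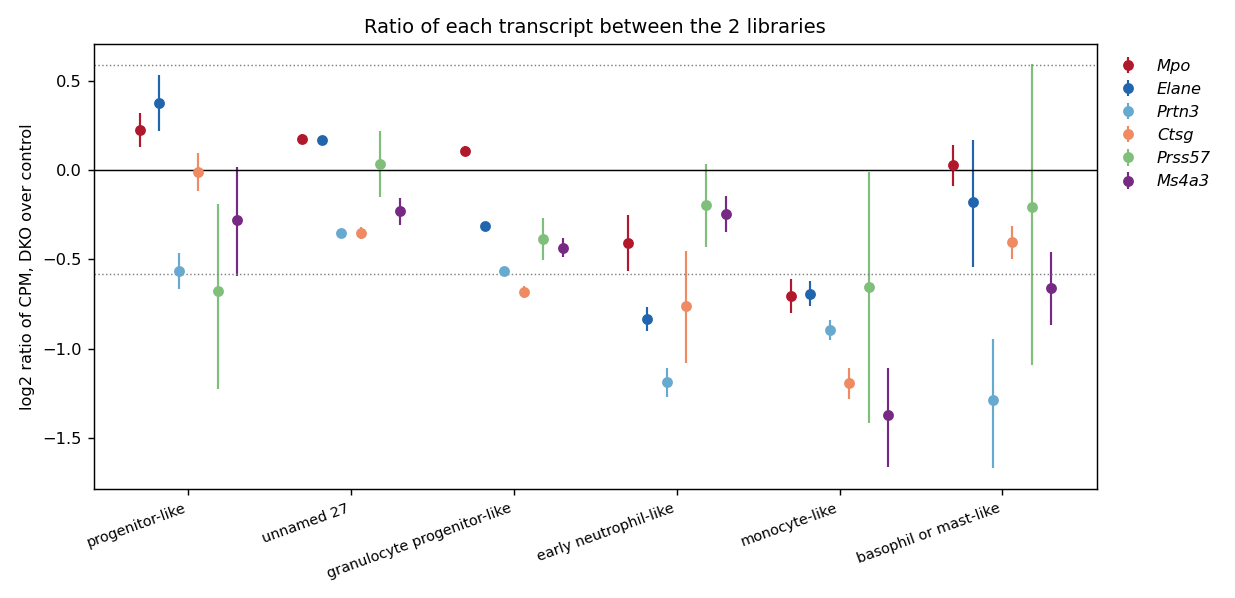
Log2 ratio of CPM (DKO over control) of each gene in 6 classes, with the exact 95% conditional binomial interval for counting error; the dotted lines mark 1.5-fold, and there is 1 library per genotype. Prtn3 lies below Mpo in each class shown, and in granulocyte progenitor-like cells Mpo (0.11) is above 0 while the other 5 are below it.

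Prtn3 was lower in relation to Mpo in the DKO library, a measure that needs no scaling to the class total. In granulocyte progenitor-like cells there were 0.425 and 0.678 Mpo UMIs per Prtn3 UMI, a difference of 0.67 on the log2 scale (95% interval 0.64 to 0.71, normal approximation on the log scale, counting error only). The same difference was 0.53 in unnamed 27, 0.79 in progenitor-like cells (0.788 and 1.36 Mpo UMIs per Prtn3 UMI) and 0.78 in early neutrophil-like cells. In monocyte-like cells it was 0.19 (interval 0.08 to 0.30). Late erythroid-like cells, which make no granule proteins, had 0.695 and 1.16 Mpo UMIs per Prtn3 UMI, and the part of free RNA in the other ratios was not tested. In B cell-like cells the interval of the difference (-0.02 to 1.40) reached 0. The difference ranged from 0.63 to 0.80 over 11 alternatives in granulocyte progenitor-like cells, and over 10 alternatives from 0.31 to 1.30 in early neutrophil-like and from 0.10 to 0.48 in monocyte-like cells. The genes were chosen as a pair after their ratios had been seen.

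Monocyte-like cells kept a part of the set with Prtn3 in front. Prtn3 was at 925 and 497 CPM, Elane at 525 and 325 CPM, and Ctsg at 427 and 187 CPM. Mpo followed with 282 and 173 CPM, Ms4a3 with 49.2 and 18.9 CPM, and Prss57 with 5.74 and 3.55 CPM. All 6 were lower in the DKO library by more than 1.5-fold, from -0.66 for Prss57 to -1.37 for Ms4a3, where 2.24% of 6613 other genes were lower by as much, and Prss57 lay below the 20 CPM asked of those genes. None of the 6 passed 1.5-fold among barcodes above the order-of-magnitude threshold alone, where Mpo turned to 0.19 and the other 5 lay between -0.46 for Ctsg and -0.05 for Elane. With a mitochondrial limit of 10% Elane was at -0.17 and Mpo at -0.33. The 26 and 4 cells that drew at least 1% of their UMIs from the 6 genes held 47.1% and 27.8% of the class's member UMIs, and without them the sum was 1262 and 887 CPM, against 2214 and 1203 CPM with them. The levels differed among the clusters of this class. Cluster 32, the largest with 614 and 366 cells, had 253 and 155 CPM of the 6 genes together, while cluster 36, with 301 and 107 cells, had 3487 and 2199 CPM. The log2 ratio was -0.66 within cluster 36 and -0.70 within cluster 32, against -0.88 for the class as a whole. The background also differed, with 246 and 52.3 CPM of the 6 genes in B cell-like cells, and 105 CPM in the control without the 1 cell that drew over 1% of its UMIs from them. With the B cell-like level subtracted, the 1 high control cell included, Mpo was at -0.51 and Elane at -0.55 in monocyte-like cells, short of 1.5-fold. Prtn3 was at -0.80, Prss57 at -0.97, Ctsg at -1.15 and Ms4a3 at -1.41.

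Basophil or mast-like cells (121 and 64 cells, named from markers such as Mcpt8, Prss34 and Cpa3) held another selection. Ctsg led with 2821 and 2129 CPM, followed by Mpo with 1469 and 1495 CPM and Ms4a3 with 643 and 407 CPM. Elane had 172 and 152 CPM and Prtn3 285 and 116 CPM, so that Ctsg stood above Elane here and below it in granulocyte progenitor-like cells. After thinning, Ctsg was detected in 41.9% of 117 control and 39.7% of 63 DKO cells, and Elane in 2.56% and 3.17%, against 2.89% and 1.48% of B cell-like cells. On the log2 scale the ratio was -0.41 for Ctsg (interval -0.50 to -0.32), 0.03 for Mpo (interval -0.09 to 0.14), -0.66 for Ms4a3 and -1.29 for Prtn3. These last 2 passed 1.5-fold, against 11.3% of 7002 other genes that were lower by as much. The 5 highest cells held 26.2% and 45.8% of the UMIs of the 6 genes in this class, and no alternative was run for it. Unnamed 31 (87 control and 19 DKO cells), led by Mcpt8, Ctsg, Prtn3 and Elane, mixed basophil and granule genes, and 20 control and 4 DKO cells held 89.9% and 88.7% of its member UMIs, so its levels are those of a few cells.

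Genes that work with the 6 proteins were counted from 6 lists in granulocyte progenitor-like cells, over genes with at least 20 CPM. Of the lysosomal and azurophil granule cargo and processing genes, 12 of 15 were counted, 2 were higher and 0 lower by 1.5-fold, and the median log2 ratio was 0.09. Over all other genes of this class 22.6% were higher, 4.7% were lower and the median was 0.18, and the counts of each list below stand against these shares. Arsb, a lysosomal sulfatase, was at 139 and 240 CPM (0.78), and Srgn, the serglycin core protein on which the proteases are packed, was 3963 and 3048 CPM (-0.38). Of the protease inhibitors, 4 of 5 were counted, 1 was higher and 0 lower, and their median was 0.11. Slpi, which blocks elastase and cathepsin G, was 126 and 198 CPM (0.65), and Serpinb1a, an inhibitor of the neutrophil serine proteases, was 1351 and 1062 CPM (-0.35). Specific and gelatinase granule genes (7 of 9 counted) had 0 genes past 1.5-fold and a median of -0.14, with Fcnb at 920 and 1367 CPM (0.57) and Chil3 at 1463 and 1276 CPM (-0.20).

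Myeloid transcription factors (8 of 10 counted) had 1 higher gene, where 22.6% of all other genes were higher, and a median of 0.20. It was Runx1, a factor of early myeloid cells, at 185 and 400.1 CPM (1.11), while Cebpb was lowest at 338 and 266 CPM (-0.35). Runx1 was not higher in this class alone. It was also higher in the DKO library in early neutrophil-like (0.74), monocyte-like (0.43) and B cell-like cells (389 and 587 CPM). Endoplasmic reticulum folding and stress genes, which handle secretory proteins such as these, had 13 of 14 genes counted, of which 0 were higher and 4 lower by 1.5-fold, where 4.7% of all other genes were lower, and a median of -0.21. The 4 were Sdf2l1 (467 and 244 CPM, -0.94), Pdia6 (-0.93), Manf (-0.73) and Pdia3 (-0.66), chaperones, disulfide isomerases and a secreted stress factor, and the last 3 are named after their values were seen. Among genes of this list with at least 50 CPM, Herpud1 was the highest at 55.3 and 62.2 CPM (0.17), with an interval that spanned 0. Below 50 CPM, Dnajb9 was higher at 20.6 and 28.9 CPM (0.49, interval 0.03 to 0.94). Lower genes of this list were not confined to this class. In monocyte-like cells 0 of 12 were higher and 3 lower by 1.5-fold, where 2.24% of other genes were lower. In early neutrophil-like cells 1 of 11 was higher and 2 lower, where 1.51% of other genes were lower. In unnamed 27 0 of 13 passed, and in immature neutrophil-like cells 0 of 11. In granulocyte progenitor-like cells, congenital neutropenia genes other than Elane (6 of 7 counted) had 1 higher gene, Vps45 at 12.95 and 20.99 CPM. It passed the 20 CPM filter through the DKO library alone, so its count says nothing of the list. Their median was -0.25, with Csf3r, the receptor for granulocyte colony-stimulating factor, at 85.8 and 126 CPM (0.55) and G6pc3 at 58.2 and 44.0 CPM (-0.40).

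Likeness of pattern was taken as Pearson's r of log2(CPM + 5) over 80 points, each 1 cluster in 1 library with at least 20 cells. The points share 2 libraries and their free RNA, so r is a description. Mpo and Ctsg were most alike (0.968), then Elane and Prtn3 (0.960), the neighbours on chromosome 10. Ctsg and Prss57 were least alike (0.779), and Ms4a3 and Prss57, the members that lasted longest in the neutrophil line, had an r of 0.913. The nearest genes outside the set were Cst7 for Mpo (0.865) and Ctsg (0.877), Dmkn for Elane (0.863) and Prtn3 (0.855), and 1700020L24Rik for Ms4a3 (0.884) and Prss57 (0.839). The other places among the nearest 3 went to Dmkn, Nkg7, Cst7, 1700020L24Rik, Plppr3, Msantd3 and Mfsd13a. Cst7, which encodes cystatin F, and Nkg7 were also markers used for naming. Plppr3, with an r of 0.813 to Prtn3, overlaps it on the chromosome, so reads between the 2 genes may not be told apart where strand or exon does not separate them.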

How the data were processed

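Chromium 3' v3 libraries of femoral marrow from 1 control and 1 DKO mouse were analysed. Reads had been processed by the authors (Cell Ranger 7.1.0, per the file headers; build mm10, per the submitters' processing notes), and whether introns were counted is not given in the sources used here. The deposited tables hold UMI counts as whole numbers, not normalized, over 32285 genes.

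A control barcode counted as a cell when its UMIs passed a limit set from the largest 3000 barcodes (order-of-magnitude threshold), or when, at 500 UMIs or more, its profile differed from that of barcodes with at most 100 UMIs (multinomial simulation with 10000 draws, false discovery rate 0.01). In a check with 400 simulated cells and 400 simulated empty droplets, 82.5% and 0.5% were called. The check had been written to require 90% of the cells, failed, and was then limited to the 209 cells under 50% hemoglobin, of which 98.6% were called, so calling loses hemoglobin-rich cells. Scrublet's own threshold marked no control cell, so its DKO threshold (0.226) was applied to both libraries and left out 348 and 208 doublets.

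Counts scaled to 10000 per cell were clustered on 2000 variable genes without the 6 members (30 components, 15 neighbors, Leiden resolution 1.0). A cluster took the class of highest mean log2 fold of its markers, and stayed unnamed with fewer than 3 raised markers, with at least 1 marker of another class and no more of its own among 10 leading genes, or with few UMIs and no own marker there. The first clustering (32 clusters) gave no granulocyte progenitor-like class. A second clustering of the myeloid clusters (41 clusters in all) was added after that and after leading genes, members included, had been seen, and ties were then made to leave a cluster unnamed. The main class therefore rests on the third version of the grouping.

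The UMIs of each class were summed within a library and expressed as CPM, and libraries were compared by the log2 ratio after 1 count was added. No test was made. Shares of cells used cells thinned to 1000 UMIs. Named genes were the members, Ddx41, Cgas, the list genes of at least 50 CPM with the largest and smallest ratio, the 3 non-members most like each member and the 3 coding neighbours on each side. The members and lists were chosen with earlier results of these data known. Depth was 119239857 control and 114664975 DKO UMIs in kept cells. Of the alternatives, 12 were planned, and those added after seeing the data are named as such. Python 3.11.15, numpy, scipy and scanpy were used. Promoters came from RefSeq (GRCm38.p6) and positions from GENCODE M21.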

Additional observations from a re-analysis of the deposited data

Results flagged for a closer look

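The log2 ratio of DKO over control of Mpo was 0.22 in progenitor-like cells (563 and 657 CPM) and -0.41 in early neutrophil-like cells (117 and 88.5 CPM). That of Elane was 0.38 in progenitor-like cells (197 and 256 CPM) and -0.83 in early neutrophil-like cells. Both genes stand out because the intervals of the 2 classes lie on opposite sides of 0. The levels in progenitor-like cells rest on few cells. There, 5 control and 3 DKO cells held 35.2% and 49.0% of the member UMIs. No alternative was run for progenitor-like cells, so whether their ratios hold under other settings was not tested. In early neutrophil-like cells Mpo turned to 0.27 with doublets kept and to 0.24 with the B cell-like level subtracted, the 1 high control cell included. It was -0.01 above the order-of-magnitude threshold. Elane in that class ranged from -1.55 to -0.20 over 10 alternatives. The intervals cover counting error only, each class has 1 library per genotype, and the difference between the classes was not tested.

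The 1125245 control barcodes with at most 100 UMIs, which no comparison used, held 9965 UMIs of the 6 genes, or 2446 CPM (interval 2398 to 2495). Barcodes of this size hold mostly free RNA, and the makeup was 30.2% Prtn3, 28.0% Elane, 21.6% Mpo and 14.4% Ctsg. Control B cell-like cells had 246 CPM, or 105 CPM without 1 high cell. The DKO empty droplets were not analysed here.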

How the results depend on the processing

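No paired analysis was possible because there was 1 library per genotype. The log2 ratio of the 6 genes in granulocyte progenitor-like cells was below 0 in each of the 11 alternatives that gave a value. It was -0.39 without the members' UMIs in the total, -0.31 with barcodes above the order-of-magnitude threshold only, -0.22 with doublets kept, -0.41 with a mitochondrial limit of 10% and -0.45 at resolution 2.0. Of the groupings added after seeing the data, it was -0.77 in the first clustering alone and -0.55 with granulocyte progenitor-like, early neutrophil-like and the unnamed clusters 27 and 31 joined. At resolution 0.5 no cluster took the name, so no value was had. The share of member UMIs in this class was, for control and DKO, 53.9% and 54.0% above the threshold, 57.3% and 55.9% with doublets, 52.9% and 57.0% at 10%, 58.9% and 51.5% with members among the clustering genes and 49.6% and 57.2% at resolution 2.0. In that class Elane, Prtn3, Ctsg, Prss57 and Ms4a3 kept their sign in 11 of 11 alternatives and Mpo in 9. The ratio of Mpo in monocyte-like cells turned from -0.70 to 0.19 above the threshold, and that of Ctsg in early neutrophil-like cells from -0.76 to 0.20 with doublets and 0.12 at 10%. That of Mpo in early neutrophil-like cells turned from -0.41 to 0.27 with doublets and 0.24 with the B cell-like level subtracted. The control level subtracted for Mpo was 53.4 CPM, against 23.5 CPM without the 1 high B cell-like cell, and no alternative left that cell out. The cause of either turn was not tested. Few cells (96 DKO granulocyte progenitor-like, 19 in unnamed 31) and 1 library per genotype limit every comparison.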

Other observations

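Specific and gelatinase granule genes were counted in granulocyte progenitor-like cells, unnamed 27, early and immature neutrophil-like cells and monocyte-like cells. Among these classes they differed most in unnamed 27, the cluster led by Mpo, Gria3 and Ctsg. There, 6 of 8 counted genes were lower by 1.5-fold and 1 was higher, with a median log2 ratio of -1.06. Over all other genes of this cluster 2.62% were lower by as much and the median was 0.12. Camp was at 354 and 87.96 CPM, and it was 107 and 62.3 CPM in B cell-like cells. The list was not counted in progenitor-like cells, where some of its genes differed more. Camp was at 783 and 141 CPM there and Chil3 at 184 and 7.95 CPM, while Mmp9 was at 19.0 and 19.9 CPM. The part of free RNA in these differences was not tested.

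Of the coding neighbours of the members, Rnf126 near Prss57 was 48.7 and 24.6 CPM in granulocyte progenitor-like cells (log2 ratio -0.97, interval -1.42 to -0.58), and Supt4a near Mpo was 150 and 122 CPM (-0.30). Ptbp1, a neighbour of Prtn3, Elane and Prss57, was 95.04 and 95.5 CPM (0.01, interval -0.23 to 0.24), and Palm beside Prss57 was 52.9 and 67.7 CPM (0.36). Plppr3, which overlaps Prtn3, was 33.1 and 24.96 CPM (-0.40) with an interval that spanned 0.

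In some classes outside the myeloid line, a few cells carried most of the member UMIs. The 5 highest cells held 90.4% and 94.5% of them in T cell-like cells, 95.4% and 37.5% in stromal-like cells and 76.1% and 16.1% in B progenitor-like cells, but 20.3% and 4.17% in late erythroid-like and 14.6% and 9.91% in early erythroid-like cells. Without the cells at or above 1% the control T cell-like level was 150 CPM and the control stromal-like level 155 CPM. Unnamed 26, in which 34.0% of control and 44.4% of DKO UMIs were hemoglobin, had 3527 and 2804 CPM of the 6 genes, and 8 control and 3 DKO cells held 80.8% and 81.1% of them.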
